A study of Mus musculus with 18 samples.

Results

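Transcripts of the T cell receptor (TCR) and of the first kinases it engages were followed in naive CD4+ T cells that lost or mutated the adaptor LAT. The genes were the CD3 chains Cd3e, Cd3d, Cd3g and Cd247, the receptor-associated adaptor Trat1, the coreceptor Cd4 and the kinases Lck, Fyn, Zap70 and Tec. Every array probe whose RefSeq accession maps to one of these symbols was taken. This gave 12 probes for 9 of the 10 genes, out of 41174 probes and 17178 named genes on the array. No probe matched Fyn by accession, so Fyn was not analysed here. Cd247 had 3 probes, Tec had 2, and the other 7 genes had 1 each. All 12 probes were well above background and none was saturated on any of the 18 arrays.

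The alpha-beta TCR has no signalling tail of its own and relies on the CD3 gamma, delta, epsilon and zeta chains, which carry the tyrosine motifs (ITAMs) that are phosphorylated when the receptor meets peptide on MHC. Lck, brought in by the CD4 coreceptor, phosphorylates these motifs, ZAP-70 docks on them, and ZAP-70 in turn phosphorylates LAT. The LAT tyrosine that the Y136F change removes binds phospholipase C-gamma, which Tec family kinases help to activate. Naive T cells keep up a weak, tonic form of this signalling without antigen, and that signalling is the subject of the study.

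The promoters of the 3 genes whose probes passed the test in any comparison are shown because they differ plainly in base composition. Each line gives the 250 bases before the RefSeq start (GRCm38.p6), 5′ to 3′ on the gene's strand. Capitals mark matches, on either strand, to the letters GGAAGT (an ETS factor core), TGTGGT (a RUNX core) or TGGAAA (an NFAT core).
Tec (chr5:72868449-72868698, minus strand): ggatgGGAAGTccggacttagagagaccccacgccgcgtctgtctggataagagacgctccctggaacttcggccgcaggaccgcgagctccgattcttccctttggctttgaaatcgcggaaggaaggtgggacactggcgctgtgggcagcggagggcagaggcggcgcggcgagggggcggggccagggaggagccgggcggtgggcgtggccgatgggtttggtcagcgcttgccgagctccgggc
Cd247 (chr1:165788431-165788680, plus strand): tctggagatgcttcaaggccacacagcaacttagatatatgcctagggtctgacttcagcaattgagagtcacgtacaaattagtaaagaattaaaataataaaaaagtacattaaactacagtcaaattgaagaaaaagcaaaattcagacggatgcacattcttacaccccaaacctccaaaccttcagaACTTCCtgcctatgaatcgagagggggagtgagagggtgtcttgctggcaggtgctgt
Trat1 (chr16:48772063-48772312, minus strand): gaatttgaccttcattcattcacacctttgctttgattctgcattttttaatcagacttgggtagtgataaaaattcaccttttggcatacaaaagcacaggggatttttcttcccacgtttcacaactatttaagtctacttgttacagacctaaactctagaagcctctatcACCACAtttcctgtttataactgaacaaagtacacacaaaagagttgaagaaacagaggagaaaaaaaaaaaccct
The Tec promoter is rich in G and C, with 68.4% GC and 26 CpG dinucleotides, against medians of 52.4% and 6 over the 32851 promoters of the table. Cd247 has 41.2% GC and 3 CpG, and Trat1 has 35.2% GC and 1 CpG. One GGAAGT match lies in the Tec window, 245 bases before the start, and 1 lies in the Cd247 window, 58 bases before it. A single TGTGGT match lies in the Trat1 window, 76 bases before the start. These letters are common, occurring in 19.7% (GGAAGT), 14% (TGTGGT) and 18.6% (TGGAAA) of all windows of that length, and a match is no evidence of binding.

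RNA came from spleen CD4+ T cells sorted as naive by low CD44, 1 C57BL/6 mouse per array, 3 mice in each of 6 groups. All mice received tamoxifen for 1 or 4 weeks, which switches on an oestrogen-receptor-fused Cre (ERCre). By the sample titles, WT mice were ERCre- LAT f/-, LAT KO mice ERCre+ LAT f/- and Y136F mice ERCre+ LAT f/m, where f is a floxed and m the mutant allele. The series text describes all mice as carrying the Cre, so the WT mice are either Cre-negative or Cre-positive depending on the source. WT and LAT KO mice thus shared 1 null allele, and an effect of Cre cannot be told apart from that of LAT if the titles hold. Neither the mice's ages nor the promoter driving the Cre is given in the sources used here. Every Y136F mouse was female by label, every WT or LAT KO mouse of 4 weeks male, and the 1-week WT and LAT KO groups each held 2 females and 1 male.

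Signals are given as scaled log2 values, the log2 of the background-corrected intensity minus the 75th percentile of the array, which lay between 1124 and 1896 intensity units. Between 84.2% and 97.9% of spots were well above background. The number of arrays limits the precision, and p-values measure the spread between mice. Sex-linked genes went against the label on 2 arrays. LAT KO replicate 1 of 1 week, labelled female, had Xist at -9.30 and Ddx3y at -0.23, and LAT KO replicate 2 of 4 weeks, labelled male, had Xist at 0.21 and Ddx3y at -8.92. Both follow their labels here, and LAT KO results are also given without them. Lat itself, on a probe whose position relative to the deleted part is unknown, read at 1 week 2.75, 3.47 and 3.37 in WT, 2.32 and 2.73 in LAT KO (the outlier spot of replicate 2, 3.19 if kept and then inside the WT range, was dropped), and 4.26, 4.17 and 4.32 in Y136F. After 4 weeks Lat read 3.29, 3.62 and 3.85 in WT, 3.16, 2.62 and 2.34 in LAT KO, and 4.43, 3.86 and 3.93 in Y136F. The LAT KO mean lay below the WT mean at both times, with differences of -0.67 ± 0.26 (SE, adjusted p = 1) and -0.88 ± 0.23 (adjusted p = 0.203) that did not pass the test. With the outlier spot kept, the 1-week difference of means was -0.45.

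The cells carried naive T cell markers in every group, and the 4-week Y136F cells also carried more transcripts of other states. The naive list summed here includes Cd2 (scaled log2 4.04 to 4.92), which is among its brightest genes and is not limited to naive cells. All 6 genes of the list (Ccr7, Il7r, Lef1, Tcf7, Cd27 and Cd2) were well above background on all 18 arrays. Their summed linear signal at 4 weeks lay between 87.6 and 95.8 in WT, between 86.7 and 89.9 in LAT KO and between 73.6 and 78.6 in Y136F, where 1 of 8 probes, that of Ccr7 (-1.36, adjusted p = 0.000109), fell against WT and the median difference was -0.14. Of 13 probes of 10 memory and effector genes, 7 rose in 4-week Y136F, among them Gzmb (3.81, adjusted p = 0.000609), Ifng (2.67, adjusted p = 0.00181) and Cxcr3 (1.68, adjusted p = 0.0161). Their sum lay between 72.9 and 134 in WT, between 47.1 and 84.3 in LAT KO and between 112 and 138 in Y136F. Of 6 probes of 5 plasma cell markers, 4 rose in 4-week Y136F, and their sum was 0.811 to 1.04 in WT and 2.42 to 4.61 in Y136F. The 4 gamma-delta T cell markers summed to between 7.64 and 10.2 in WT and between 12.9 and 17.7 in Y136F, none passing against WT. That sum is mostly Maf, whose scaled log2 signal over the 18 arrays was 1.74 to 4.11. Blk, Il23r and Sox13 reached at most -0.76, -2.15 and -5.57, so the sum is no measure of gamma-delta T cells. Sox13, which defines a gamma-delta subset, was well above background on at most 3 arrays. Of 7 NK cell probes, 1 rose and 1 fell, with sums of 3.45 to 3.74 and 3.43 to 4.35. No probe of 10 myeloid genes passed against WT, with sums of 5.72 to 6.68 and 6.13 to 11.9. None of the B cell, regulatory T cell, CD8, erythroid or platelet probes passed the test in any comparison. Between LAT KO and Y136F at 4 weeks, LAT KO was higher on 3 of the 8 naive marker probes (Ccr7, Lef1 and Cd27) and lower on 6 of the 13 memory and effector probes, 4 of the 6 plasma cell probes, 2 of 5 gamma-delta T cell probes (both of Maf), 3 of the 7 NK cell probes, with 1 higher, and 1 of 14 myeloid probes. The LAT KO sums were 0.708 to 0.987 for the plasma cell, 3.70 to 7.17 for the gamma-delta T cell, 3.37 to 4.05 for the NK cell and 5.38 to 6.80 for the myeloid markers. Of all probes, 2.57% rose and 0.925% fell in 4-week Y136F against WT. Against Y136F, 1.15% were higher and 2.38% lower in 4-week LAT KO. Prdm1 counts in both the memory and effector list and the plasma cell list, so those counts are not independent. The part of these markers in the differences below was not tested.

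Across the 12 probes the receptor and coreceptor transcripts were mostly level, and 3 genes moved: Tec, Cd247 and Trat1. In 4-week LAT KO cells 1 probe passed an adjusted p of 0.05 against WT (Tec, higher), where 0.0977% of all probes did and 0.0626% were higher. In 4-week Y136F cells 3 did, 1 higher (Trat1) and 2 lower (both Cd247), where 3.49% of all probes did, 2.57% higher and 0.925% lower. Between LAT KO and Y136F at 4 weeks 4 probes passed, all higher in LAT KO (2 of Tec and 2 of Cd247), where 3.53% of all probes passed and 1.15% were higher. At 1 week no probe of these genes passed against WT in LAT KO or Y136F, or between LAT KO and Y136F, where 0.015%, 0.0125% and 0% of all probes passed and 1156, 2580 and 2407 probes had an unadjusted p under 0.05. None passed between WT cells of 4 and 1 week or for the change of the LAT KO difference over time, where 0% of all probes passed (7604 and 2105 at an unadjusted p under 0.05). Arrays of the compared groups did not overlap for 1 of the 12 probes in LAT KO against WT at 1 week (higher, as for 1.03% of all probes) and for 6 in Y136F (higher, 4.82%). At 4 weeks this held for 4 higher and 1 lower in LAT KO (10.2% and 13.1% of all probes) and for 2 higher and 4 lower in Y136F (10% and 16.3%). Between LAT KO and Y136F it held for 2 lower at 1 week (6.16%) and for 6 higher and 2 lower at 4 weeks (13% and 10%). Between WT cells of 4 and 1 week it held for 2 higher and 1 lower (8.21% and 11.3%). Separation of the arrays alone is thus common on these arrays. The comparisons with WT at one time share their WT arrays. Over all probes the median difference from WT at 4 weeks was -0.14 in LAT KO and -0.16 in Y136F, against 0 and -0.04 after quantile normalization, while the 12 probes had medians of 0.02 and -0.09. Of all probes called in 4-week LAT KO, 64.1% were higher, against 75.9% after quantile normalization and 77.3% with the authors' deposited log2 values. That share of 39 calls was lower under other alternatives, among them 39.5% of 3801 with array weights, 28.6% of 7 with no intensity trend, and 20% of 5 without WT replicate 3 or without LAT KO replicate 2.

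**Figure D1:**
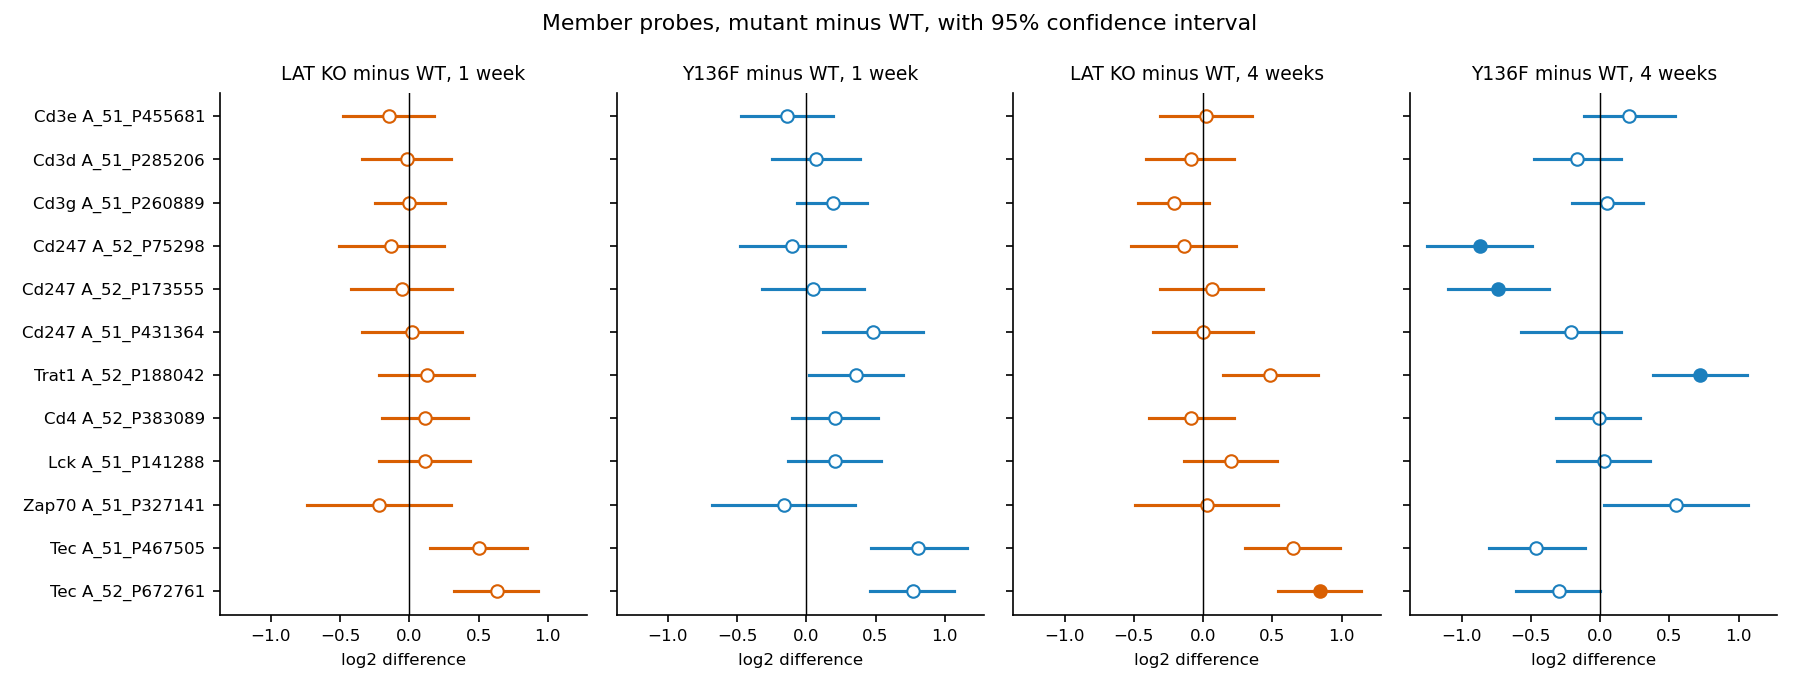
Difference from WT in scaled log2 signal (horizontal axis) for each of the 12 probes, with 95% confidence intervals from limma, in 4 comparisons. Filled points passed an adjusted p of 0.05: 0 at 1 week, 1 (Tec) in 4-week LAT KO, and 3 (2 of Cd247 and Trat1) in 4-week Y136F.

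Among the receptor chains, Cd247, which encodes CD3 zeta, the chain with the most ITAMs, fell in Y136F cells at 4 weeks on 2 of its 3 probes. Probe A_52_P75298 read 3.31, 3.30 and 3.54 in WT, 2.99, 3.46 and 3.26 in LAT KO and 2.36, 2.44 and 2.72 in Y136F. All Y136F arrays lay below every WT and LAT KO array, while LAT KO overlapped WT. Probe A_52_P173555 read 3.24, 2.93 and 3.28 in WT, 3.11, 3.34 and 3.18 in LAT KO and 2.45, 2.31 and 2.48 in Y136F. Here too the Y136F arrays were the lowest, with no overlap. The differences from WT were -0.87 ± 0.18 (SE, a 1.83-fold lower signal, adjusted p = 0.00902) and -0.74 ± 0.18 (1.66-fold, adjusted p = 0.0235). With LAT KO as the comparison, Y136F was lower by similar amounts, the LAT KO minus Y136F differences being 0.73 ± 0.18 (adjusted p = 0.029) and 0.79 ± 0.18 (adjusted p = 0.0136). In cells sorted in bulk, fewer cells carrying a transcript and less of it per cell cannot be told apart.

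The third Cd247 probe, A_51_P431364, did not pass the test. At 4 weeks it read -0.80, -0.91 and -1.27 in WT, -1.13, -0.77 and -1.09 in LAT KO and -1.26, -1.14 and -1.20 in Y136F, so Y136F overlapped WT. The difference from WT was -0.21 ± 0.17 (95% interval -0.57 to 0.15, adjusted p = 0.542). It shares its RefSeq accession with A_52_P173555, and A_52_P75298 carries another Cd247 accession. Over the 18 arrays the first 2 probes correlated at r = 0.92 with each other and at 0.38 and 0.52 with the third, as a description of probes on shared arrays. Which transcript forms each probe reads was not determined.

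At 1 week the first 2 Cd247 probes did not separate the genotypes. Probe A_52_P75298 read 3.55, 3.21 and 3.19 in WT, 3.39, 3.31 and 2.86 in LAT KO and 2.98, 3.18 and 3.49 in Y136F, with full overlap. Its difference from WT was -0.13 (95% interval -0.51 to 0.25) in LAT KO and -0.10 (-0.48 to 0.28) in Y136F. The third probe was higher in Y136F than in WT by 0.48 ± 0.17 with no overlap, which did not pass (adjusted p = 0.559). The change of the Y136F difference from 1 to 4 weeks was -0.78 and -0.78 on the first 2 probes and -0.69 on the third (adjusted p = 0.234, 0.208 and 0.279), so a change with time was not established by the test.

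Within the 3 slides that held both groups, the 4-week Y136F minus WT difference was -0.86, -0.82 and -0.95 on A_52_P75298 and -0.62, -0.79 and -0.79 on A_52_P173555. Sex differed between these groups by label, and with labelled sex as a term, which rests on the 1-week arrays, the differences were -1.21 (adjusted p = 0.0455) and -1.16 (adjusted p = 0.0319). Among those 1-week arrays, LAT KO replicate 1 goes against its sex label. With sex read from the sex-linked genes, an alternative added after seeing the data, 3 probes passed between Y136F and WT, as in the main fit. Leaving out WT replicate 3 of 4 weeks ended the call on A_52_P75298 (-0.79, adjusted p = 0.0583). The call on A_52_P173555 was lost without WT replicate 1 (-0.69, adjusted p = 0.0644), WT replicate 3 (-0.67, 0.117), Y136F replicate 1 (-0.75, 0.0615), replicate 2 (-0.68, 0.1) or replicate 3 (-0.77, 0.0656). Against LAT KO, without the 2 arrays that go against their sex label, the differences were 0.62 (adjusted p = 0.135) and 0.73 (adjusted p = 0.0462). That first call was also lost without LAT KO replicate 2 (0.62, adjusted p = 0.2), LAT KO replicate 3 (0.72, 0.09), Y136F replicate 1 (0.66, 0.137) or Y136F replicate 2 (0.70, 0.119), with labelled sex as a term (1.07, 0.0539) and with no intensity trend (0.0564). The second was lost without LAT KO replicate 2 (0.73, adjusted p = 0.0924) or Y136F replicate 2 (0.74, 0.0755).

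Trat1, which encodes TRIM, a small transmembrane adaptor that associates with the TCR complex through the zeta chain, rose in Y136F cells at 4 weeks. At that time it read 2.03, 1.94 and 2.19 in WT, 2.52, 2.44 and 2.64 in LAT KO and 2.68, 2.83 and 2.81 in Y136F. The 3 genotypes did not overlap, in the order WT, LAT KO, Y136F. Y136F exceeded WT by 0.72 ± 0.16 (SE, 1.65-fold, adjusted p = 0.0166), and by 0.89, 0.62 and 0.65 within the 3 shared slides. LAT KO minus WT was 0.48 ± 0.16 (95% interval 0.14 to 0.83), 0.46 and 0.49 within the 2 shared slides and 0.53 without the arrays that go against their sex label, and did not pass (adjusted p = 0.322). LAT KO minus Y136F was -0.24 ± 0.16 (adjusted p = 0.666).

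At 1 week Trat1 read 2.39, 2.14 and 2.22 in WT, 2.80, 2.27 and 2.07 in LAT KO and 2.39, 2.70 and 2.74 in Y136F. The groups overlapped, and the differences from WT were 0.13 (95% interval -0.22 to 0.47) in LAT KO and 0.36 (0.02 to 0.70, adjusted p = 0.767) in Y136F. The change of the Y136F difference from 1 to 4 weeks was 0.36 ± 0.23 (adjusted p = 0.769). The 4-week Y136F call depended on which sex assignment was used as a term and on single arrays. With labelled sex as a term the difference was 0.46 (adjusted p = 0.559), and with sex read from the sex-linked genes, an alternative added after seeing the data, it was 0.81 (adjusted p = 0.047). Leaving out WT replicate 2 (0.67, adjusted p = 0.0889), Y136F replicate 2 (0.69, 0.0716) or Y136F replicate 3 (0.70, 0.0739) also ended the call.

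**Figure D2:**
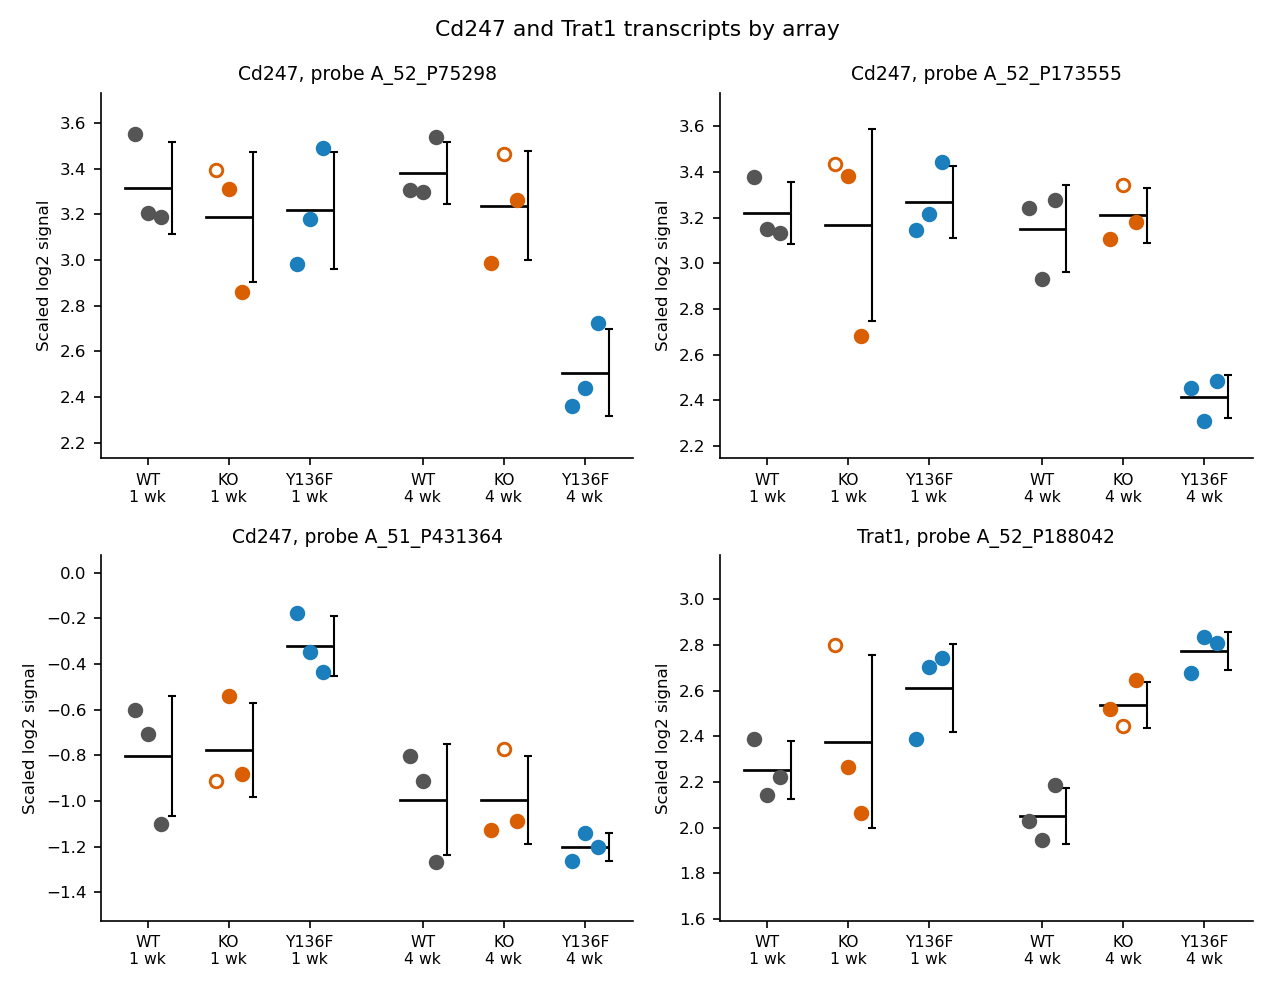
Scaled log2 signal (vertical axis) of the 3 Cd247 probes and the Trat1 probe on each array, by genotype and weeks of tamoxifen. Points are mice, horizontal lines are group means, bars are SD (n = 3), KO is LAT KO, and hollow points are the 2 arrays that go against their sex label. At 4 weeks the Y136F points of the upper 2 Cd247 probes lie at or below 2.72, under all WT and LAT KO points, and those of Trat1 lie at or above 2.68, over all others of that time.

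The invariant chains CD3 epsilon, delta and gamma, which pair into the dimers that flank the TCR, showed no difference that passed the test in any of the 10 comparisons. Cd3e group means lay between 4.16 and 4.42, Cd3d means between 5.29 and 5.47 and Cd3g means between 4.96 and 5.27. At 4 weeks the 95% intervals of Y136F minus WT were -0.12 to 0.54 for Cd3e, -0.48 to 0.15 for Cd3d and -0.20 to 0.31 for Cd3g. A fall as large as that of the first 2 Cd247 probes lies outside these 3 intervals. The LAT KO minus WT intervals at 4 weeks were -0.31 to 0.35, -0.41 to 0.22 and -0.47 to 0.04. For Cd3g, LAT KO arrays (4.95 to 5.06) lay wholly below WT arrays (5.20 to 5.26), and the difference of -0.21 did not pass (adjusted p = 0.498). Quantile normalization turned that sign (0.14), as it did for Cd3d in LAT KO (0.26) and Y136F (0.16), so no direction is given for these chains.

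Cd4, the coreceptor that binds MHC class II and carries Lck, was read by a probe printed at 10 spots and also stayed level between genotypes. At 1 week the WT mean was 2.62 ± 0.11 (SD, n = 3), that of LAT KO 2.73 ± 0.33 and that of Y136F 2.83 ± 0.07, and at 4 weeks they were 2.98 ± 0.05, 2.89 ± 0.15 and 2.97 ± 0.04. The 95% interval of the 4-week difference from WT was -0.39 to 0.22 in LAT KO and -0.32 to 0.29 in Y136F. WT cells of 4 weeks lay wholly above those of 1 week, by 0.36 ± 0.15, which did not pass (adjusted p = 0.22).

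Lck, the Src family kinase that phosphorylates the CD3 ITAMs, was likewise level. Its means were 2.83 ± 0.11 (SD, n = 3), 2.94 ± 0.40 and 3.04 ± 0.14 in WT, LAT KO and Y136F at 1 week and 2.84 ± 0.08, 3.04 ± 0.06 and 2.87 ± 0.08 at 4 weeks. The 4-week LAT KO arrays lay above the WT arrays without overlap, but the difference of 0.20 (95% interval -0.14 to 0.53) did not pass (adjusted p = 0.577). In Y136F the interval was -0.31 to 0.36. No comparison passed the test for Lck.

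Zap70, the Syk family kinase that docks on phosphorylated ITAMs and acts on LAT, varied more from mouse to mouse. At 4 weeks it read 1.35, 1.25 and 1.32 in WT, 1.48, 0.94 and 1.58 in LAT KO and 1.53, 1.93 and 2.09 in Y136F. Y136F arrays all lay above WT arrays, with the lowest of them inside the LAT KO range. Y136F minus WT was 0.55 ± 0.25 (95% interval 0.03 to 1.07) and did not pass (adjusted p = 0.271), with 0.68, 0.78 and 0.19 within slides. At 1 week it read 1.29, 1.17 and 1.65 in WT, 1.83, 1.04 and 0.57 in LAT KO and 1.14, 1.20 and 1.27 in Y136F. The 1-week LAT KO mice spanned the widest range of any group, from 0.57, the lowest Zap70 value of the 18 arrays, to 1.83, and the difference from WT was -0.22 (95% interval -0.74 to 0.30), with 24 alternatives between -0.56 and 0.21. It was -0.56 without the arrays that go against their sex label and 0.07 without LAT KO replicate 3. With only mice labelled female it was 0.21, which keeps LAT KO replicate 1 (1.83), an array that goes against that label.

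**Figure D3:**
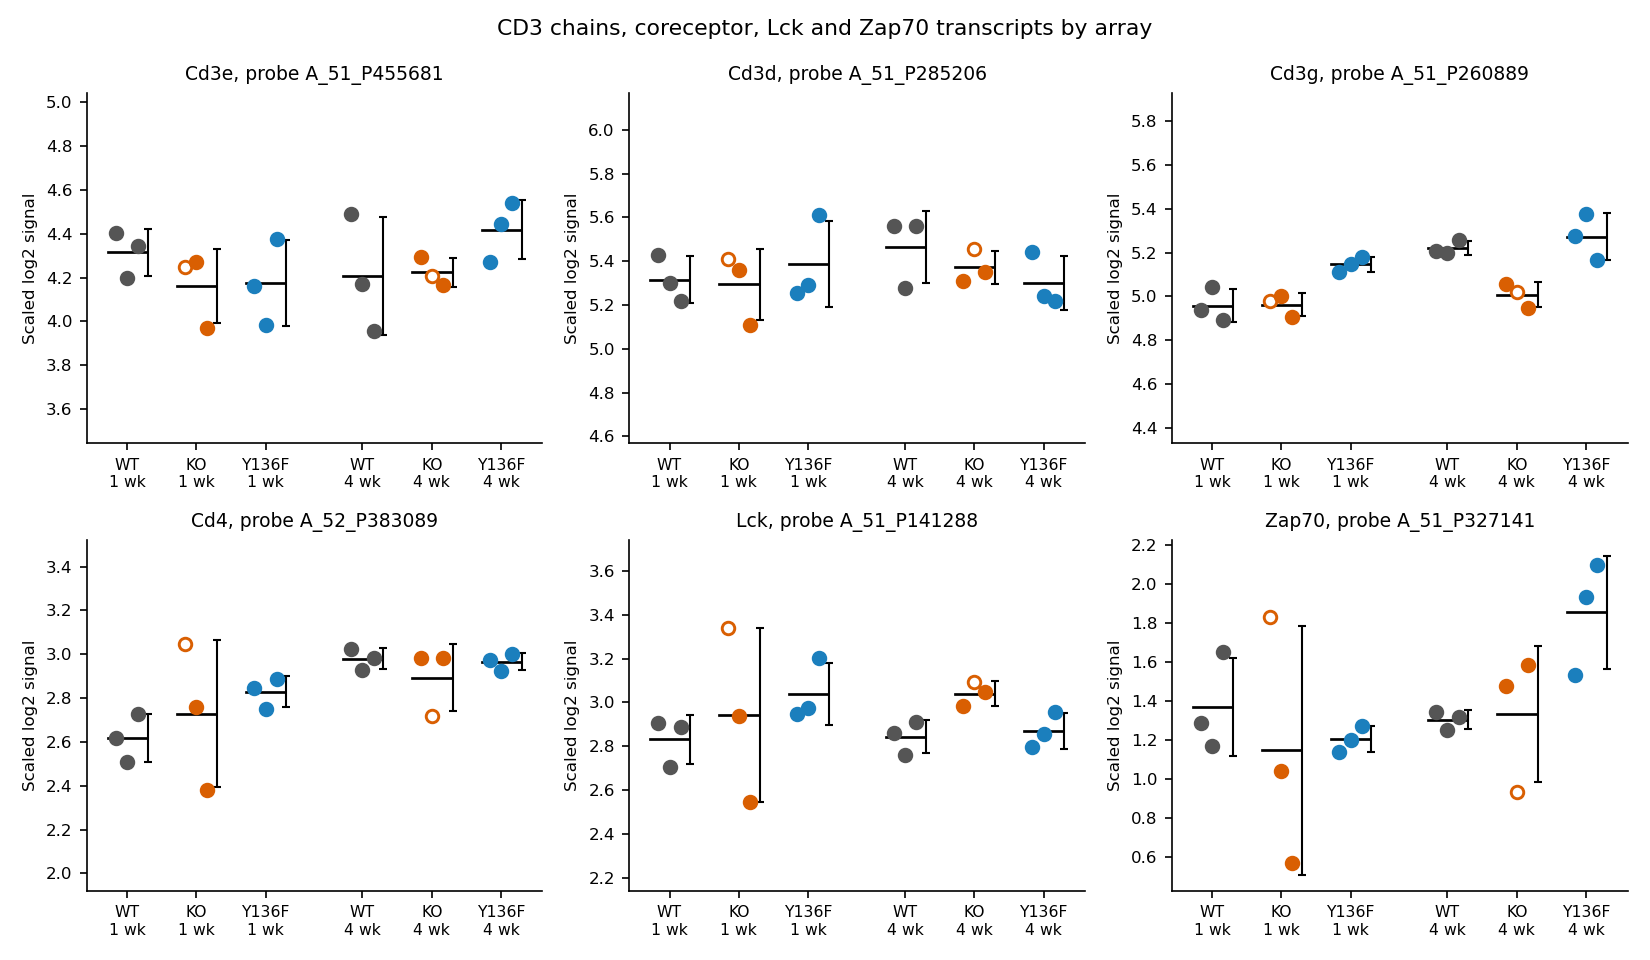
Scaled log2 signal (vertical axis) of Cd3e, Cd3d, Cd3g, Cd4, Lck and Zap70 on each array, by genotype and weeks of tamoxifen, with group means (lines), SD (bars, n = 3) and hollow points for the 2 arrays that go against their sex label. No probe shown passed the test in any comparison, and Zap70 in 1-week LAT KO has the largest SD, 0.64.

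Tec, a kinase of the family that helps activate phospholipase C-gamma downstream of LAT, had the largest differences of the 9 genes between LAT KO and Y136F cells at 4 weeks. Its 2 probes carry the same accession and correlated at r = 0.97 over the 18 arrays. On A_52_P672761 the 4-week arrays read -1.20, -1.16 and -1.01 in WT, -0.45, -0.10 and -0.30 in LAT KO and -1.50, -1.46 and -1.32 in Y136F. The 3 genotypes did not overlap: LAT KO was highest and Y136F lowest. On A_51_P467505 they read -0.42, -0.21 and -0.23 in WT, 0.24, 0.41 and 0.43 in LAT KO and -0.89, -0.65 and -0.71 in Y136F, in the same order and again without overlap.

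LAT KO exceeded Y136F at 4 weeks by 1.14 ± 0.14 (SE, 2.21-fold, adjusted p = 0.000215) on A_52_P672761 and by 1.11 ± 0.16 (2.15-fold, adjusted p = 0.000703) on A_51_P467505. Within the 2 shared slides the differences were 1.02 and 1.05 on A_52_P672761 and 1.14 and 1.13 on A_51_P467505. Without the 2 arrays that go against their sex label they were 1.05 (adjusted p = 0.000736) and 1.08 (adjusted p = 0.00219), and with labelled sex as a term 1.29 (adjusted p = 0.0106) and 1.45 (adjusted p = 0.00576). Both probes passed in every alternative run in which they were tested, 21 and 23 in all.

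Against WT at 4 weeks, Tec rose in LAT KO cells on A_52_P672761, by 0.84 ± 0.14 (1.79-fold, adjusted p = 0.0309). On A_51_P467505 the difference was 0.65 ± 0.16 (95% interval 0.30 to 0.99), which did not pass (adjusted p = 0.169). Within the 2 shared slides the first was 0.71 and 0.75, and the second 0.66 and 0.66. The call on A_52_P672761 was lost without any 1 of the 6 arrays: WT replicate 1 (0.80, adjusted p = 0.0679), replicate 2 (0.82, 0.166) or replicate 3 (0.90, 0.116), or LAT KO replicate 1 (0.93, 0.0741), replicate 2 (0.75, 0.31) or replicate 3 (0.85, 0.101). Without both arrays that go against their sex label it was 0.75 (adjusted p = 0.128), with slide as a fixed term 0.87 (0.0624) and with sex read from sex-linked genes 0.80 (0.0741). Averaged over both times, LAT KO exceeded WT by 0.73 ± 0.10 on A_52_P672761 (adjusted p = 0.00305) and by 0.57 ± 0.12 on A_51_P467505 (adjusted p = 0.0383), where 0.324% of all probes passed and 0.206% were higher. The first value was called in all 27 alternatives run for it, 0.65 (adjusted p = 0.0174) without those 2 arrays. The second was called in 12 of 29, and lost its call in 10 of the 12 that left out 1 array. The calls held without WT replicate 1 or LAT KO replicate 3 of 1 week, and the lost values lay between 0.52 and 0.60. It was 0.51 (adjusted p = 0.169) without those 2 arrays.

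In 4-week Y136F cells Tec lay below WT on every array of both probes, as 16.3% of all probes did, but the differences of -0.46 ± 0.16 (A_51_P467505, adjusted p = 0.159) and -0.30 ± 0.14 (A_52_P672761, adjusted p = 0.301) did not pass. At 1 week the Y136F arrays lay on the other side. A_51_P467505 read 0.17, -0.17 and -0.30 in WT, 0.61, 0.44 and 0.15 in LAT KO and 0.49, 1.00 and 0.64 in Y136F. A_52_P672761 read -0.71, -0.77 and -0.90 in WT, -0.03, -0.21 and -0.26 in LAT KO and -0.14, 0.23 and -0.18 in Y136F. Y136F exceeded WT on every array, as 4.82% of all probes did, by 0.81 ± 0.16 (adjusted p = 0.134) and 0.77 ± 0.14 (adjusted p = 0.109), neither past the threshold. LAT KO minus WT at 1 week was 0.50 ± 0.16 (adjusted p = 1) and 0.63 ± 0.14 (adjusted p = 0.509), or 0.39 and 0.55 without the arrays that go against their sex label. The within-slide values of Y136F minus WT at 1 week were 0.79, 1.17 and 0.47, and 0.76, 1.01 and 0.53.

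The change of the Y136F difference between 1 and 4 weeks passed its own test on both Tec probes, where 0.599% of all probes passed and 0.14% were lower. It was -1.27 ± 0.23 (adjusted p = 0.0156) on A_51_P467505 and -1.07 ± 0.20 (adjusted p = 0.0209) on A_52_P672761, against 0.15 ± 0.23 (adjusted p = 0.866) and 0.22 ± 0.20 (adjusted p = 0.819) for LAT KO. With labelled sex as a term it was -1.50 (adjusted p = 0.0165) and -1.17 (adjusted p = 0.0492). The first call was lost without WT replicate 3 of 1 week (-1.17, adjusted p = 0.0515), Y136F replicate 2 of 1 week (-1.12, 0.0533) or WT replicate 2 of 4 weeks (-1.23, 0.0556). The second was lost without WT replicate 2 (-1.08, adjusted p = 0.0508) or 3 (-1.02, 0.061) of 1 week, Y136F replicate 2 of 1 week (-0.94, 0.0704), WT replicate 2 (-1.09, 0.0565) or 3 (-1.01, 0.0655) of 4 weeks, or Y136F replicate 1 (-1.03, 0.0571) or 2 (-1.05, 0.0568) of 4 weeks.

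Both Tec probes placed the group means in the same order, from the highest: Y136F and LAT KO at 1 week (0.71 and 0.40 on A_51_P467505), LAT KO at 4 weeks (0.36), WT at 1 and 4 weeks (-0.10 and -0.29) and Y136F at 4 weeks (-0.75). The first 3 overlapped their neighbours in this order, as did WT of the 2 times on this probe. LAT KO of 4 weeks and WT of 1 week did not overlap, nor did WT and Y136F of 4 weeks. On A_52_P672761 WT of 4 weeks lay wholly below WT of 1 week, as 11.3% of all probes did. That difference of -0.33 ± 0.14 did not pass (adjusted p = 0.238).

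**Figure D4:**
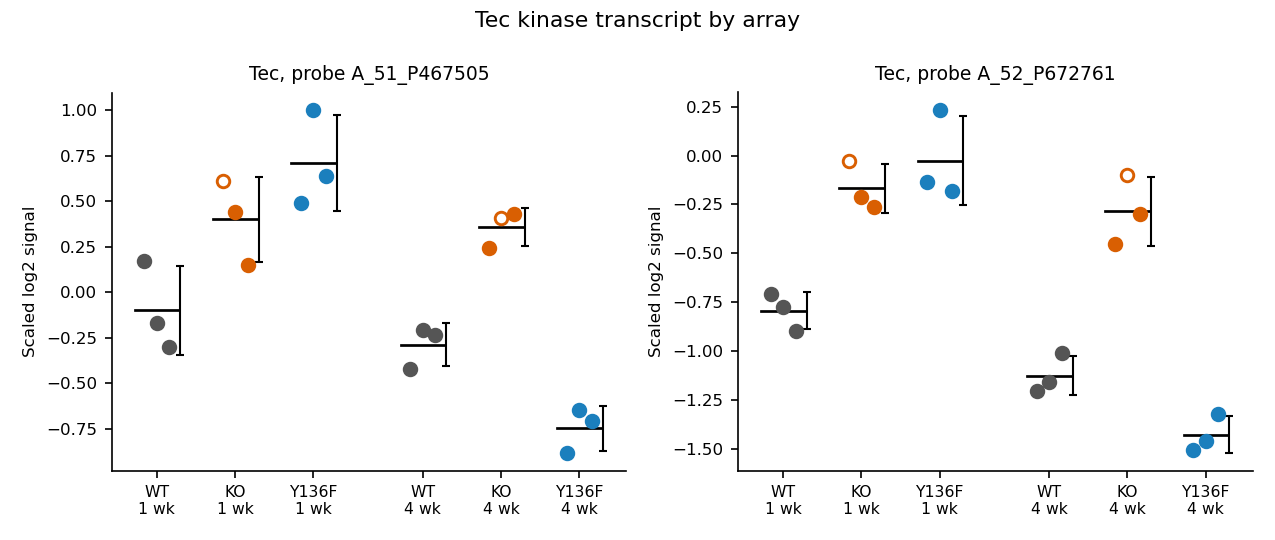
Scaled log2 signal (vertical axis) of both Tec probes on each array, by genotype and weeks of tamoxifen, with group means (lines), SD (bars, n = 3) and hollow points for the 2 arrays that go against their sex label. On A_51_P467505 the Y136F points lie at 0.49 to 1.00 after 1 week and at -0.89 to -0.65 after 4 weeks, while LAT KO stays between 0.15 and 0.61 at both times.

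Other genes of the pathway gave a background for these values. Of 34 further genes of TCR-proximal signalling, 33 had probes, 47 in all. None passed at 1 week or in 4-week LAT KO against WT. In 4-week Y136F, 4 probes of 3 genes rose and 1 fell, where 2.57% and 0.925% of all probes did. The median difference was 0.09 over the list and -0.16 over all probes. Dok2, an adaptor that restrains TCR signalling, rose by 1.13 ± 0.14 (adjusted p = 0.000246). Cd6 and Cd5, surface receptors that tune TCR signalling, rose by 0.95 ± 0.21 and 0.76 ± 0.18 (adjusted p = 0.0122 and 0.0201, 2 probes of Cd6) and by 0.65 ± 0.16 (adjusted p = 0.0296). Grap2, which encodes the adaptor Gads that joins SLP-76 to LAT, fell by 0.61 on the log2 scale (adjusted p = 0.0282). Between LAT KO and Y136F at 4 weeks 5 of the 47 probes were higher and 5 lower in LAT KO, where 1.15% and 2.38% of all probes were, led by Dok2 (-0.91, adjusted p = 0.00109), Grap2 (0.87, adjusted p = 0.00221), Lat (-1.37, adjusted p = 0.00249), Cd5 (-0.80, adjusted p = 0.00738) and Cd6 (-0.80, adjusted p = 0.0147). Lat is the targeted gene itself and counts among the 5 lower probes. The Y136F difference of Dok2 changed by 1.35 ± 0.20 between the times (adjusted p = 0.00462), where 0.459% of all probes were higher. Ptpn6, the phosphatase SHP-1, was lower in LAT KO averaged over both times, by -0.61 and -0.53 on 2 probes (adjusted p = 0.0143 and 0.0464), where 0.118% of all probes were lower.

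Of 12 probes of 10 other Src, Syk and Tec family kinases, Src fell in 4-week Y136F (-0.69 ± 0.17, adjusted p = 0.0331), where 0.925% of all probes fell. No other of the 12 passed in any comparison. Txk, a Tec family member found in T cells, did not pass between LAT KO and Y136F at 4 weeks, with 0.49 ± 0.15 (adjusted p = 0.108). Of 4 other ITAM-bearing chains, Fcer1g, the Fc receptor gamma chain, was lower in LAT KO than in Y136F at 4 weeks (-0.96 ± 0.25, adjusted p = 0.043). Its probe is also in the myeloid list and is the myeloid probe counted as lower above. Of all probes, 2.38% were lower there.

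Among 17061 named genes, those whose signal followed Tec most closely over the 18 arrays were Ly6c1 (r = 0.95), Pdk1 (0.92) and Tapt1 (0.92), and Phactr2 ran most opposite (-0.90). For Cd247, on its brightest probe, they were H2-Ob (0.91), Mob3a (0.91) and Dnajb13 (0.90), with Ell2 most opposite (-0.89). For Trat1 they were Cenpb (0.90), Ufc1 (0.89) and Serpinb9 (0.89), with Slc41a3 most opposite (-0.88). With the group means removed, r was 0.57, 0.42 and 0.57 for Ly6c1, Pdk1 and Tapt1, and -0.01 for Phactr2. In the same order as above it was 0.76, 0.85, 0.80 and -0.75 for Cd247, and 0.72, 0.81, 0.85 and -0.69 for Trat1. Arrays share genotype and slide, so these values describe patterns only.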

How the data were processed

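Cy3-labelled RNA was read on single-colour Agilent 4x44k mouse arrays. Per the file headers, the deposited spot intensity comes from Feature Extraction by Agilent, version 10.5.1.1, and the processed intensity used is background-corrected and linear. The submitters' processing notes name version 10.5 of it, and limma. The authors' series matrix has log2 values, with column medians between 8.558 and 8.57. They rank the probes of an array as its median signal does, and their normalization is not given in the sources used here.

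The intensity was log2-transformed, and each array's 75th percentile over 43379 non-control spots was subtracted. Spots marked as outliers were dropped: 7888 in 1-week LAT KO replicate 3, 187 to 952 on the others, and none among the 12 probes. Spots of a probe were averaged, and different probes of a gene were kept apart. A RefSeq table of GRCm38.p6 named 24844 probes by accession. As the array design uses another build, probe positions are left out. In R 4.3.3, limma 3.58.1 (with statmod 1.5.0 and the data.table package, 1.17.8) was fitted to the 39981 probes well above background on at least 3 arrays. The model had 6 group means over 18 arrays, an intensity trend, 12 residual degrees of freedom and 5.58 prior ones (median). All tests are two-sided. P-values were adjusted by Benjamini-Hochberg across the probes of each comparison, and 0.05 was the threshold. The code was tested on simulated data. Each slide was scanned separately, so slide and scan are the same batch.

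Normexp background correction (offset 50) used the median spot intensity, and array weights were run with outlier spots kept. Other alternatives stand in the closing section. Every probe of the listed genes is reported, with pathway probes past the threshold (at most 6 per comparison, smallest p first, to which Txk and Fcer1g were added after their values were seen). Some listed genes are not reported here, and list counts and sums leave them out. For genes that passed in any comparison, the 3 genes most correlated and the 1 least correlated are named. Members and lists were chosen with earlier results of these data known. Figures were drawn with matplotlib.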

Additional observations from a re-analysis of the deposited data

Results flagged for a closer look

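The difference between Y136F and WT cells in Tec changed between 1 and 4 weeks of tamoxifen by -1.27 on probe A_51_P467505 and by -1.07 on probe A_52_P672761. The change was tested directly, as the interaction of genotype and time in limma (adjusted p = 0.0156 and 0.0209 over all probes). All 3 Y136F arrays lay above the WT arrays at 1 week and below them at 4 weeks on both probes. The 1-week WT group held 2 females and 1 male by label and the 4-week WT group only males, while all Y136F mice were female. With labelled sex as a term the changes were -1.50 and -1.17 (adjusted p = 0.0165 and 0.0492). Groups of 3 arrays are too small for the check of single outlying samples, which was not made.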

How the results depend on the processing

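Of 36 alternatives in all, 18 left out 1 array each, and not all apply to every comparison. No probe called in a comparison changed sign under any alternative run. In LAT KO against WT at 4 weeks, the 1 called probe became 0 with the brightest probe per gene, slide as a fixed term, only the groups of the comparison, no intensity trend, without both LAT KO arrays that go against their sex label, with sex read from sex-linked genes, and with the series matrix on the brightest probe. With the brightest probe the other Tec probe stands for the gene. Leaving out single arrays gave 0 to 0. Array weights gave 3. In the other comparisons array weights raised the member counts to 2 (LAT KO, 1 week, from 0), 3 (Y136F, 1 week, from 0), 5 (Y136F, 4 weeks, from 3) and 6 (change of the Y136F difference, from 2). The brightest-probe settings keep 1 probe per gene, so a gene with 2 called probes can count only once there. Against 4 called between LAT KO and Y136F at 4 weeks (2 of Tec and 2 of Cd247), the brightest probe gave 2, on the series matrix too. The 2 called for the change of the Y136F difference became 1 under the same pair of settings. For LAT KO averaged over both times the 2 called became 1 with normexp, the series matrix, the brightest probe, only the groups of the comparison, no intensity trend, and without both LAT KO arrays, and 0 with the series matrix on the brightest probe. Leaving out single arrays gave 1 to 2 (Y136F, 4 weeks), 2 to 4 (LAT KO against Y136F, 4 weeks), 0 to 2 (change of the Y136F difference) and 1 to 2 (LAT KO, both times). Beyond the limit of 1 probe per gene, the cause of these moves was not tested.

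The replicate block moved 1 member count, that of LAT KO averaged over both times, from 2 to 1 (Tec A_51_P467505, adjusted p = 0.0505). Deviations from the group means had a median r of -0.06 over 45 pairs of same-numbered arrays of different groups, 15 of them over 0.1. For differently numbered arrays it was 0.03 over 90 pairs, 38 of them over 0.1. These values show no pairing by number but cannot exclude one, and the main fit does not pair the samples.

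Over all probes, the counts called moved by more than 1.5 times under several alternatives. The brightest-probe settings also test fewer probes. In LAT KO against WT at 4 weeks, 39 became 25 (brightest probe), 24 (outlier spots kept), 7 (no trend), 18 (without both LAT KO arrays), 9 (sex read from sex-linked genes) and 5 to 36 without single arrays. In Y136F against WT at 4 weeks, 1393 became 112 with labelled sex and 722 to 1558 without single arrays. In LAT KO against Y136F at 4 weeks, 1411 became 935 (slide fixed), 270 (labelled sex), 2938 (sex read from sex-linked genes) and 601 to 1154 without single arrays. For the change of the Y136F difference, 239 became 69 (labelled sex), 653 (own groups), 131 (no trend), 761 (without both LAT KO arrays), 741 (sex read from sex-linked genes), 159 (series matrix, brightest probe) and 94 to 224 without single arrays. For LAT KO over both times, 129 became 63 (slide fixed), 57 (own groups), 66 (no trend) and 71 to 188. Array weights gave 3801, 5712, 3337, 1578 and 4739 in these 5 comparisons, and 464, 630, 549, 1701 and 23 in the 5 with at most 6 calls. In Y136F against WT at 1 week, 5 became 24 (without both LAT KO arrays), 14 (slide random), 11 (slide fixed), 8 (own groups), 0 (mice labelled female), 1 to 3 under 5 others and 2 to 4 without single arrays. In WT at 4 against 1 week, 0 became 267 (without both LAT KO arrays) and 3 to 7 under 4 others. In LAT KO against WT at 1 week, 6 became 1 (mice labelled female, which keeps LAT KO replicate 1) and 0 (own groups). In LAT KO against Y136F at 1 week, 0 became 1 under 4 alternatives.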
